A study of Mus musculus with 6 samples.

Results

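The Fos, Jun and Egr families are transcription factor genes that cells switch on within minutes of a growth signal. The 10 members described here, Fos, Fosb, Fosl1, Fosl2, Jun, Junb, Jund, Egr1, Egr2 and Egr3, were chosen by gene symbol, through the RefSeq transcript that the array files give for each probe. They were read by 16 probes, among 23787 genes that could be named on an array of 56605 gene probes. All 10 had at least 1 probe well above background on at least 1 array. The study compared mouse fallopian tube organoids, which are hollow cysts of oviduct epithelium grown in matrix, with 1 one-colour array for each of 6 cultures. The tumour-derived Pik3ca/Trp53 culture was regrown from a subcutaneous growth with the histology label adenocarcinoma. Its source, Pik3ca/Trp53, carried Pik3caH1047R, an activated catalytic subunit of PI3-kinase, with loss of Trp53, the gene of the tumour suppressor p53. The cyst-derived Apc/Trp53 culture is also labelled tumour-derived, but its histology label is cyst. Its source, Apc/Trp53, carried Apc580D, an allele of the Wnt antagonist Apc, with loss of Trp53. The Trp53 loss culture carried that loss alone. Control organoids, from Trp53flox/flox mice, were transduced with the control vector pLKO.1. All 6 cultures shared a serum-free medium that held CHIR-99021, an inhibitor of GSK3, at 2.5 μM, Jagged-1, a Notch ligand, at 1 μM, Y27632, an inhibitor of ROCK, at 10 μM, the BMP antagonist Noggin at 100 ng/ml, the Wnt agonist R-spondin1 at 250 ng/ml and EGF at 50 ng/ml. The labels name neither the number of animals behind a culture nor whether it was clonal, and do not say what drove the recombination.

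AP-1 is a dimer of a Jun protein with another Jun or a Fos protein, joined through leucine zippers. Fos proteins cannot pair with each other, while Jun proteins can. Growth factor receptors act through ERK and other MAP kinases on SRF and its ETS-family partners, which sit on the promoters of FOS and EGR genes and start their transcription without new protein synthesis. EGR proteins are zinc finger factors that bind GC-rich sites and induce their own corepressors, NAB1 and NAB2. EGF was in the medium of every culture, so all values describe cells under growth factor, not a stimulation from rest. The culture time between the last medium change and RNA extraction is not given in the sources used here, and these transcripts are short-lived.

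Between 45.4% and 51.0% of the gene probes were well above background on each array, and no spot was saturated. All 10 listed epithelial markers, Epcam, the keratin and claudin genes and Pax8 among them, were well above background on all 6 arrays. The 6 arrays shared 1 slide and 1 scan. Control and both lesion-derived cultures lay in slide row 2 and the other 3 cultures in row 1, so row cannot be told apart from those contrasts. With a single array for each culture, the differences below could not be tested, and their precision is limited by the number of arrays. The error given with a value is technical, from the scanner software's own error for each spot, and was 0.14 on the log2 scale for bright spots. Signals are background-subtracted intensities of a probe in the scanner's units. Levels are log2 of that signal minus the 75th percentile of the array, and a difference is the level in one culture minus that in another. A gene was counted as 2-fold apart at a log2 difference of at least 1. Where one signal was not well above background, the fold is given as "at least" a bound, computed with the dim signal raised to the lowest signal well above background on its array. In such bulk RNA, fewer cells of a type and less RNA per cell cannot be told apart.

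The altered genes were read by 1 probe each. The Trp53 signal was 162.1 in tumour-derived Pik3ca/Trp53, 13.25 in Pik3ca/Trp53, 5.43 in cyst-derived Apc/Trp53, 42.62 in Apc/Trp53, 4.91 in Trp53 loss and 840.8 in control. The probe did not clear background in Pik3ca/Trp53, in cyst-derived Apc/Trp53 or in Trp53 loss. Tumour-derived Pik3ca/Trp53 was at least 6.01-fold above its source and 5.67-fold below control, although both cultures are labelled with Trp53 loss. Where this probe lies relative to the floxed exons is not given in the sources used here. The Pik3ca signal was 429.6 in tumour-derived Pik3ca/Trp53 and 1737 in its source, and the Apc probe was near background on all 6 arrays, so neither checks the alleles.

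Promoter windows are shown for Fos, Junb and Egr2, whose levels were highest in the tumour-derived Pik3ca/Trp53 culture, and for Jun, whose level was lowest there. For Fos and Jun, control lay within technical error of that culture. RefSeq sequence on GRCm38.p6 was at hand for 7 of the 10 members, and these are the 250 bases before the annotated start, read 5′ to 3′ on the gene's strand. Capitals mark the motif matches described after them. Fos lies on the + strand with its window at chr12:85473640-85473889, Junb on the − strand at chr8:84978749-84978998, Egr2 on the + strand at chr10:67537619-67537868, the third of its 5 listed starts, and Jun on the − strand at chr4:95052223-95052472.
Fos: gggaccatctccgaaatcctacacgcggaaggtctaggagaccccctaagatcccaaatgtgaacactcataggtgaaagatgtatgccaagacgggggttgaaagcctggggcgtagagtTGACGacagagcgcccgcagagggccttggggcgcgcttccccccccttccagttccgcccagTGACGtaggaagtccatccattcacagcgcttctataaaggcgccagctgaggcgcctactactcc
Junb: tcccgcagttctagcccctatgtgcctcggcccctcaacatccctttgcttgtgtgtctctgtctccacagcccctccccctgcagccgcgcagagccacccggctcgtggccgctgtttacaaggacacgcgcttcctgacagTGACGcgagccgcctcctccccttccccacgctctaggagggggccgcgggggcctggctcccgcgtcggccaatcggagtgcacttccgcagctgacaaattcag
Egr2: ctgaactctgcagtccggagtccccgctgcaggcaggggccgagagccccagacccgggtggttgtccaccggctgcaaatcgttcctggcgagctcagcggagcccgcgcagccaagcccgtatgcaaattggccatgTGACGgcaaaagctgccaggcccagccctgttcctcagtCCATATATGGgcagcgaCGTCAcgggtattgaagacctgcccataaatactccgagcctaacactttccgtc
Jun: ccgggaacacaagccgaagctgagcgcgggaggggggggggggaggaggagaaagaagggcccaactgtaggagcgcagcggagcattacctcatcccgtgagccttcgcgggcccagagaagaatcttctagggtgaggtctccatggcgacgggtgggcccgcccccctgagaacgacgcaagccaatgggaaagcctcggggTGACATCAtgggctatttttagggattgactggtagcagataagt

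Both strands were searched, over the same 250 bases and the next 50, for 6 motifs: the CArG box bound by SRF, the full cyclic AMP response element TGACGTCA, its half-site TGACG, which also lies within the full element, the AP-1 site TGANTCA, the variant AP-1 site TGACATCA and the EGR site GCGNGGGCG. The Egr2 window held the CArG box CCATATATGG at −72 to −63, counted from the start, and 2 half-sites around it, at −111 to −107 and, on the other strand, −55 to −51. These matches depend on the start chosen. The window of the first Egr2 start matched no motif, and that of the second held another CArG box, CCTTTTTTGG, without a half-site. A CArG box occurs in 1.63% of the 32851 windows of this length and the half-site in 20.8%. The Fos window held the half-site at −129 to −125 and −66 to −62, and the Junb window at −106 to −102. The Jun window held the variant AP-1 site at −45 to −38, which 3.62% of windows hold. None of the 4 windows matched the full element, found in 1.79% of windows, the TGANTCA site, found in 7.81%, or the EGR site, found in 5.55%. The windows of Fosb and Fosl2 each held 1 EGR site. These matches are letters in a sequence and carry no measurement of binding in these cultures.

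Fos, the founding member of its family, had a signal of 4729 in tumour-derived Pik3ca/Trp53, 2583 in Pik3ca/Trp53, 1164 in cyst-derived Apc/Trp53, 1780 in Apc/Trp53, 3167 in Trp53 loss and 4301 in control. Its levels spanned 4.58-fold, with tumour-derived Pik3ca/Trp53 and control at the top, 0.008 log2 units apart and within the technical error of 0.20. Both Apc/Trp53 cultures were the lowest. Fosl1, which encodes FRA-1, a Fos protein without the strong activation domain of FOS, had 95.71, 5.18, 6.83, 118.1, 124.1 and 92.24 in the same order of cultures. It was therefore present at similar signals in 4 cultures and not well above background in Pik3ca/Trp53 or cyst-derived Apc/Trp53. Fosb was dim throughout. Its brighter probe gave 70.11 in tumour-derived Pik3ca/Trp53, 36.73 in cyst-derived Apc/Trp53, 25.61 in Apc/Trp53 and 38.86 in control, and was not well above background in Pik3ca/Trp53 or Trp53 loss. Its other probe was above background on no array.

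Levels of Fosl2, which encodes FRA-2, set 1 culture apart from the other 5. Its brighter probe gave 5171 in tumour-derived Pik3ca/Trp53, 4874 in Pik3ca/Trp53, 1727 in cyst-derived Apc/Trp53, 4908 in Apc/Trp53, 4751 in Trp53 loss and 4243 in control. Averaged over its 2 probes, neighbours in the order of the other 5 cultures lay within technical error of each other. From end to end these 5 ran from 0.61 in Trp53 loss to 0.27 in tumour-derived Pik3ca/Trp53. Cyst-derived Apc/Trp53 lay 1.07 log2 units below the next. The dimmer probe spanned 27.53 in cyst-derived Apc/Trp53 to 48.26 in Trp53 loss.

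Jun, which can bind DNA as a homodimer and is the usual partner of FOS, varied least of the 6 members that were above background on every array. Its signal was 2592 in tumour-derived Pik3ca/Trp53, 4207 in Pik3ca/Trp53, 3701 in cyst-derived Apc/Trp53, 3434 in Apc/Trp53, 3793 in Trp53 loss and 2529 in control. The range was 0.87 log2 units, and the tumour-derived Pik3ca/Trp53 culture stood at the low end beside control, 0.093 log2 units apart and within technical error. Junb, a weaker activator than JUN that can oppose it, gave 31150, 12260, 5994, 9189, 17120 and 15120 in the same order on its brighter probe. Its dimmer probe gave 310.5, 74.65, 37.76, 48.79, 164.8 and 136.3, and placed the 6 cultures in the same order. The range over both probes was 7.37-fold. Jund, the member usually expressed at a steady level in resting cells, gave 19500, 10940, 9418, 17040, 12740 and 17820 on its brighter probe and spanned 2.45-fold over both. Averaged over both probes, no 2 neighbours in the order of Junb or of Jund lay within technical error of each other. On the brighter Jund probe alone, tumour-derived Pik3ca/Trp53 and control had nearly equal levels, 5.8642 and 5.8625. On its other probe they had 5.7268 and 5.3177.

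Egr1, a zinc finger factor induced by most growth signals, had the widest range of the members measured on every array, 24.3-fold. Its signal was 6924 in tumour-derived Pik3ca/Trp53, 1219 in Pik3ca/Trp53, 321.2 in cyst-derived Apc/Trp53, 1122 in Apc/Trp53, 2324 in Trp53 loss and 1278 in control. Control and Pik3ca/Trp53 were the only neighbours within technical error, 0.024 log2 units apart. Egr2, known for its part in hindbrain and Schwann cell development, had 340.6 in tumour-derived Pik3ca/Trp53, 41.0 in Trp53 loss and 54.23 in control. The other 3 cultures did not clear background, Pik3ca/Trp53 (8.15), cyst-derived Apc/Trp53 (10.26) and Apc/Trp53 (7.67). Egr3, a relative induced in muscle spindles and lymphocytes, was seen in 1 culture. Of its 3 probes, 2 gave 300.8 and 94.65 in tumour-derived Pik3ca/Trp53, and no probe was above background in any other culture. The plot of member levels by culture shows every probe.

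**Figure D1:**
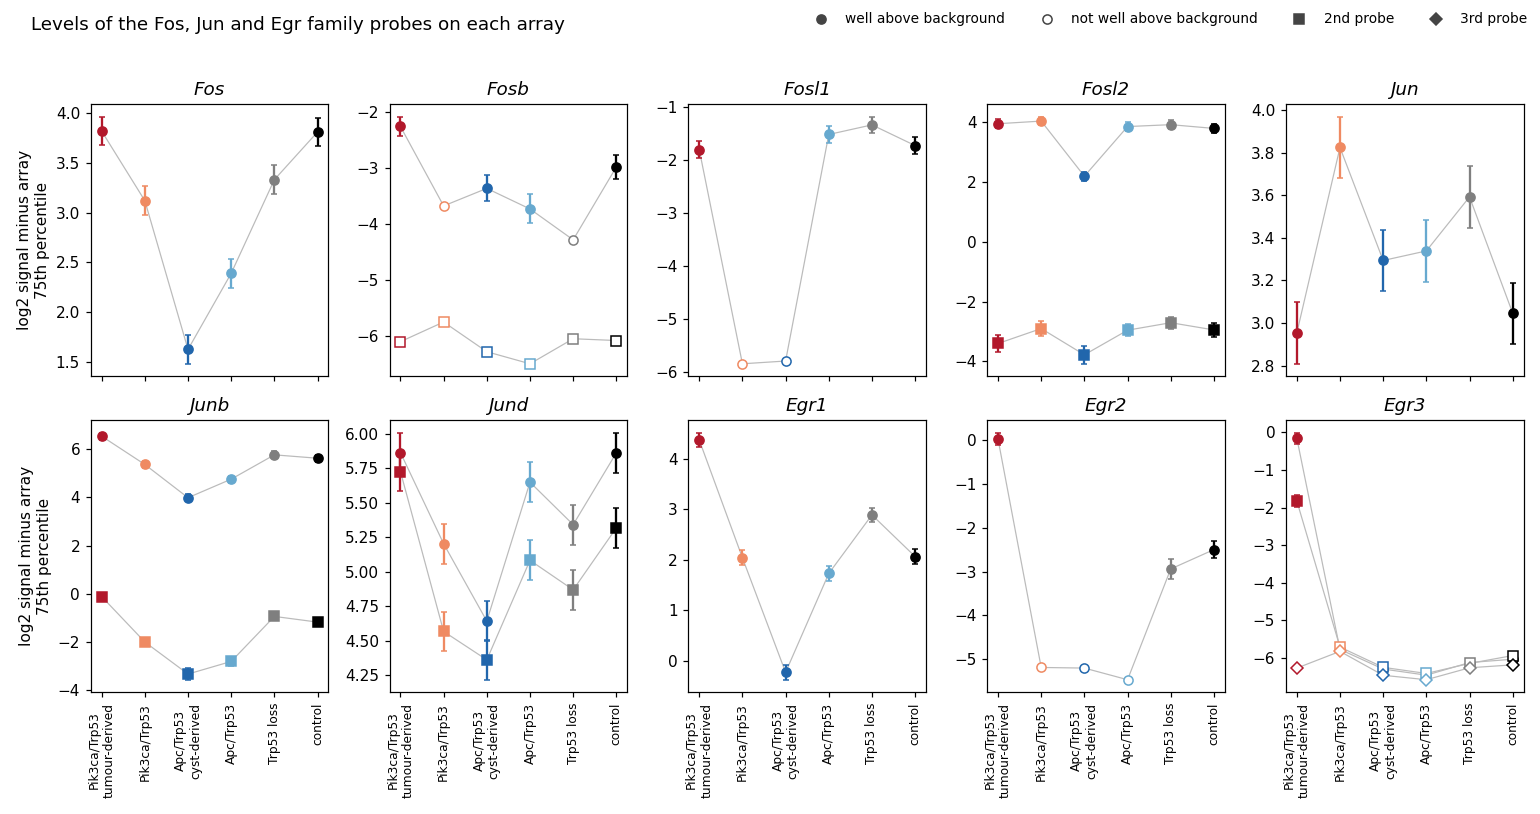
Levels of each member in the 6 cultures, as log2 signal minus the array's 75th percentile, with 1 array per culture. Circles, squares and diamonds are a gene's different probes joined by grey lines, open symbols are signals not well above background, and bars are the scanner software's technical error. Egr1, Egr2 and Egr3 stand highest in tumour-derived Pik3ca/Trp53, where Jun is at its lowest, within technical error of control.

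The comparison of tumour-derived Pik3ca/Trp53 with its source asks what differed in cells that had grown under the skin and were returned to culture. Of the 10 members, 6 were at least 2-fold higher (Fosb, Fosl1, Junb, Egr1, Egr2 and Egr3) and 0 were 2-fold lower. Across all 14727 genes measured in this comparison, 14.5% were 2-fold higher and 10.6% 2-fold lower. Fosb, Fosl1, Egr2 and Egr3 were measured here only through the tumour-derived array, as their source signals were not well above background. Over the 6 members with probes above background on all 6 arrays, 2 were 2-fold higher, 0 were 2-fold lower and the median difference was 0.805, where the median over all genes with the same limit to such probes was −0.10. Egr2 was at least 12.6-fold higher, Egr3 at least 6.26-fold, Egr1 5.04-fold (2.33 ± 0.20 log2 units, technical error), Fosl1 at least 3.55-fold and Fosb at least 2.6-fold. Junb was 2.88-fold higher, with an SD of 0.50 log2 units between its 2 probes. Jund and Fos did not reach 2-fold, at differences of 0.91 and 0.70. Jun and Fosl2 were the only members with negative differences, −0.87 and −0.29. All 6 counts at 2-fold held with dim signals raised to the bound, but Fosb, whose source signal of 23.26 was just under the background limit, was 0.39 log2 units higher with normexp background correction and 0.53 with every probe used.

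The cyst-derived Apc/Trp53 culture was set against its own source in the same way. Of 8 members measured in this comparison, 0 were 2-fold higher and 3 were 2-fold lower, where 11.1% and 8.23% of all 14888 measured genes were. The members' median was −0.82, against −0.05 for all genes. Fosl1 was at least 6.12-fold lower, Egr1 3.89-fold lower (−1.96 ± 0.20) and Fosl2 2.37-fold lower, with an SD of 0.59 between its 2 probes. Fosl2 missed 2-fold with normexp correction, at −0.93. Jund, Fos and Junb had differences of −0.87, −0.77 and −0.65. Jun had −0.04, within its technical error of 0.20, and Fosb 0.37. Scaling by the array median in place of the 75th percentile shifted the median of all genes in this comparison to −0.37 and brought Fos (−1.09) and Jund (−1.19) past 2-fold. Egr2 and Egr3 were above background in neither culture.

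**Figure D2:**
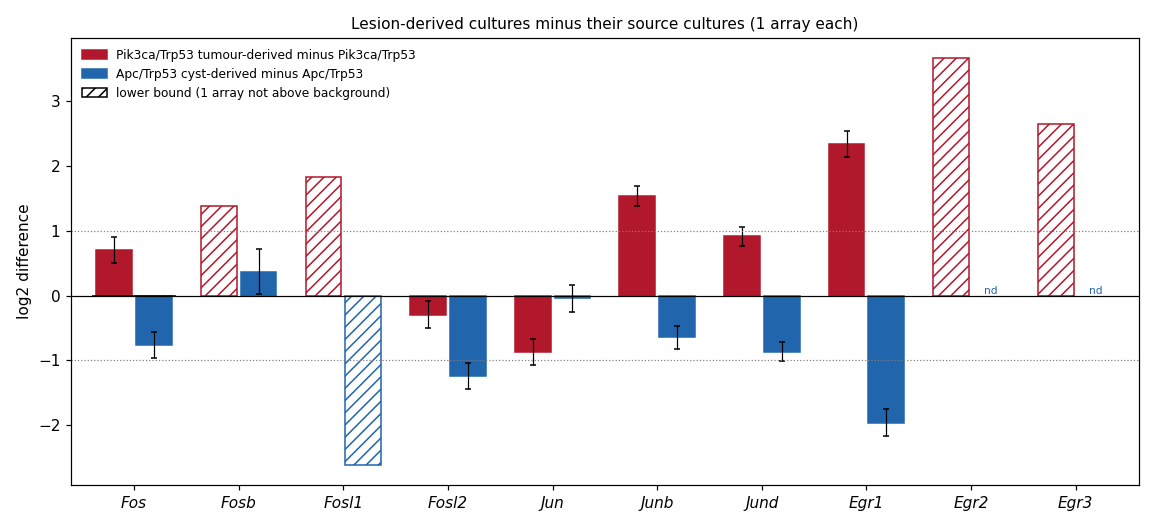
Log2 difference of each member in the lesion-derived culture minus its source, with Pik3ca/Trp53 in red and Apc/Trp53 in blue, 1 array each. Hatched bars are lower bounds where 1 signal was not well above background, black lines are technical error, dotted lines mark 2-fold, and nd marks members above background in neither culture. Fosl1 and Egr1 pass 2-fold upward in the red pair and downward in the blue one.

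Fosl1 and Egr1 were thus 2-fold higher in one pair and 2-fold lower in the other, and these pairs share no array. They were 50% of the 4 members that were 2-fold higher in the Pik3ca/Trp53 pair and 66.7% of the 3 that were 2-fold lower in the Apc/Trp53 pair, among the 8 members measured in both. Among all 13932 genes measured in both pairs, 376 went these opposite ways, which is 24.3% of the 1546 that were higher and 34.9% of the 1076 that were lower. With 1 array per culture the difference between the pairs was not tested. Set directly against each other, tumour-derived Pik3ca/Trp53 was at least 2-fold above cyst-derived Apc/Trp53 for 9 of 10 members and 2-fold below it for 0, against 16.9% and 15.7% of all 15289 measured genes. Fosl1, Egr2 and Egr3 were measured here only through the tumour-derived Pik3ca/Trp53 array. Over the 6 members with probes above background on all 6 arrays, 5 were 2-fold higher and 0 lower. With the same limit, 1490 of 12556 genes were 2-fold higher and 1284 lower. Egr1 was 24.3-fold higher, Egr2 at least 17.9-fold, Egr3 at least 8.86-fold, Junb 7.37-fold, Fosl1 at least 5.02-fold, Fos 4.58-fold, Jund 2.45-fold, Fosb 2.15-fold and Fosl2 2.1-fold. The Fosl2 value had an SD of 0.97 between its probes. With normexp correction Fosl2 and Fosb did not reach 2-fold here, at 0.88 and 0.47. Jun was the exception at −0.34. The source cultures did not show this spread: Pik3ca/Trp53 minus Apc/Trp53 had 0 of 8 measured members 2-fold higher and 1, Fosl1, at least 4.32-fold lower. In that comparison 7.74% of all 14442 genes were 2-fold higher and 7.27% 2-fold lower.

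Among the cultures that had not been inoculated, no member was 2-fold higher than in Trp53 loss or control, apart from Jun in Pik3ca/Trp53 minus control with median scaling (1.01, against 0.78 with the 75th percentile). Trp53 loss minus control had 0 of 9 measured members 2-fold higher and 1 lower, Fosb, whose signal of 16.19 in Trp53 loss was not well above background, by at least 2.0-fold. Of all 14361 genes, 6.17% were 2-fold higher and 7.16% lower. Egr1 had a difference of 0.82 ± 0.20, Jun of 0.55 ± 0.20, Jund of −0.49 ± 0.14 and Fos of −0.48 ± 0.20. Fosb fell short of 2-fold with normexp correction, at −0.40, and with every probe used, at −0.63.

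The 2 double-mutant source cultures are both set against Trp53 loss, which they share as comparator, so their values are not independent. Pik3ca/Trp53 had 0 of 8 measured members 2-fold higher and 2 lower, against 9.03% and 8.67% of all 14237 genes. These were Fosl1, at least 4.9-fold lower, and Egr2, for which the bound of 1.62 did not reach 2-fold. Apc/Trp53 had 0 of 9 members 2-fold higher and 3 lower, against 5.27% and 5.39% of all 14463 genes. Egr2 was at least 2.58-fold lower, Junb 2.71-fold (−1.44 ± 0.16, with an SD of 0.61 between probes) and Egr1 2.24-fold (−1.16 ± 0.20). Fosl1 separated the cultures: its difference in Apc/Trp53 was −0.18 ± 0.21, within technical error. Jun was again nearly level, at 0.23 in Pik3ca/Trp53 and −0.25 in Apc/Trp53.

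Against control, Pik3ca/Trp53 had 2 of 9 measured members 2-fold lower and 0 higher, where 11.0% and 10.9% of all 14331 genes were. Fosl1 was at least 3.74-fold and Egr2 at least 2.2-fold lower. Apc/Trp53 had 3 of 9 lower and 0 higher, where 9.49% and 8.25% of all 14598 genes were. Egr2 was at least 3.5-fold lower, Fos 2.68-fold and Junb 2.38-fold. The Junb value was −0.88 with normexp correction and −0.87 on its brighter probe alone. With normexp correction the 4 differences of Egr2 in these cultures, against Trp53 loss and against control, were between −0.40 and −0.67. The plot of differences before inoculation shows the 3 comparisons that involve Trp53 loss.

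**Figure D3:**
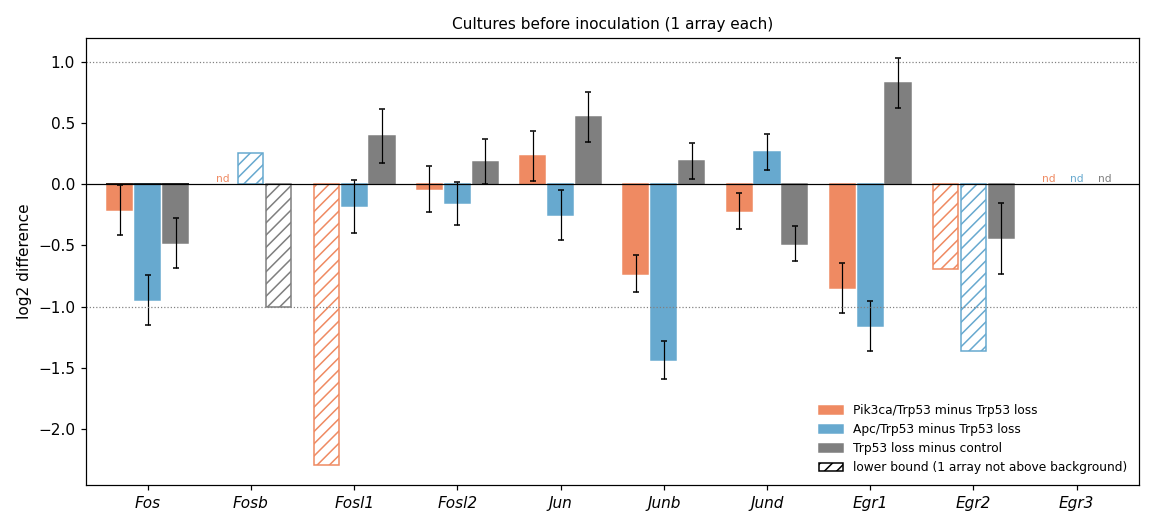
Log2 difference of each member between cultures that were not inoculated, with Pik3ca/Trp53 minus Trp53 loss in orange, Apc/Trp53 minus Trp53 loss in light blue and Trp53 loss minus control in grey, 1 array each. Hatched bars are bounds where 1 signal was not well above background, black lines are technical error, dotted lines mark 2-fold and nd marks members above background in neither culture. No solid bar reaches 2-fold upward, and the solid bars of Junb and Egr1 in Apc/Trp53 pass it downward.

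Other immediate early genes answer many of the same signals. Counts in this and the next lists use signals as measured, so a gene counted as 2-fold apart can have a bound under 2-fold. Of 33 measured of 34 listed, 13 were 2-fold higher and 2 lower in tumour-derived Pik3ca/Trp53 against its source, with a median of 0.79, or 0.57 with bounds. Over all genes in that comparison, 14.5% were 2-fold higher and 10.6% lower. Arc, an immediate early gene best known from neurons, had a signal of 762.8 in the tumour-derived culture and 46.94 in its source, a 14.4-fold difference. Klf2, a zinc finger factor, was at least 6.87-fold higher, Dusp1, a phosphatase that switches off MAP kinases, 5.27-fold and Klf6 3.96-fold. In the Apc/Trp53 pair, 0 of 31 were 2-fold higher and 11 lower, with a median of −0.67. Over all genes in that pair, 11.1% were 2-fold higher and 8.23% lower. Ccn2, a matrix-associated growth factor induced by YAP and SRF, had 2828 in the cyst-derived culture and 10430 in its source, 4.1-fold lower. Klf6 was 3.15-fold lower, Ier5 3.0-fold and Sgk1, a serum-induced kinase, 2.97-fold. Klf6, Myc, Ccn1 and Sgk1 were 2-fold higher in the Pik3ca/Trp53 pair and 2-fold lower in the other, and are named because they were all that were among 31 measured in both. They are 36.4% of the 11 that were higher and of the 11 that were lower, where the shares over all genes were 24.3% and 34.9%. Before inoculation, 10 of 32 were 2-fold lower in Pik3ca/Trp53 than in Trp53 loss, led by Dusp2 at 6.06-fold, and 4 of 32 in Apc/Trp53, led by Ccn2 at 4.25-fold. The shares of all genes that were 2-fold lower were 8.67% and 5.39%. In Trp53 loss against control 4 of 32 were lower, Arc, Plk2, Dusp1 and Ier5, by 2.25-fold to 3.34-fold, where 7.16% of all genes were. None of the 32 was 2-fold higher in these 3 comparisons.

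Genes commonly cited as AP-1 targets included the proteases and protease receptors of tissue remodelling. Of 24 measured of 28 listed, 14 were 2-fold higher and 0 lower in tumour-derived Pik3ca/Trp53, with a median of 1.68, or 1.28 with bounds. Over all genes, 14.5% were 2-fold higher and 10.6% lower there. Mmp13, a collagenase, had a signal of 979.7 in the tumour-derived culture and was not above background in its source, a difference of at least 36.4-fold. Cd44, a hyaluronan receptor, was at least 11.8-fold higher, Csf2, a myeloid growth factor, at least 7.78-fold and Mmp3, a stromelysin, at least 7.69-fold. In the Apc/Trp53 pair 1 of 21 was 2-fold higher and 7 lower, with a median of −0.49, where 11.1% and 8.23% of all genes were. Plau, the urokinase gene, had 112.9 in the cyst-derived culture and 620.6 in its source, 6.11-fold lower. Its receptor Plaur had 366.6 and 1656, 5.02-fold lower, and the chemokine Cxcl2 was at least 5.8-fold lower. Of the 21 measured in both pairs, Plau, Plaur, Areg, Csf2 and Cxcl2 were 2-fold higher in the Pik3ca/Trp53 pair and 2-fold lower in the other. They are 45.5% of the 11 that were higher and 71.4% of the 7 that were lower, where the shares over all genes were 24.3% and 34.9%. The bounds of Areg and Csf2 in the Apc/Trp53 pair were 1.65-fold and 1.57-fold, and that of Plau in the Pik3ca/Trp53 pair 1.99-fold. Before inoculation, 9 of 22 were 2-fold lower in Pik3ca/Trp53 than in Trp53 loss and 8 of 22 in Apc/Trp53, with 0 higher in both. The shares of all genes that were 2-fold lower were 8.67% and 5.39%. Mmp13 was at least 3.2-fold lower in Pik3ca/Trp53 and at least 5.08-fold lower in Apc/Trp53, and Csf2 at least 5.94-fold and 5.37-fold lower. In Trp53 loss against control 4 of 23 were lower and 1 was higher, where 7.16% and 6.17% of all genes were. The higher one, Spp1, was 7.35-fold above control in Trp53 loss. Against Trp53 loss it was 4.06-fold lower in Pik3ca/Trp53 and 2.62-fold lower in Apc/Trp53.

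The related leucine zipper genes encode proteins that can pair with AP-1 subunits or bind similar sites. In the Pik3ca/Trp53 pair 4 of 15 measured were 2-fold higher and 1 lower, with a median of 0.35, where 14.5% and 10.6% of all genes were. Batf, a partner of JUN in lymphocytes, was at least 7.84-fold higher, Atf3, a stress-induced partner, 2.91-fold higher and Maf 4.92-fold lower. In the Apc/Trp53 pair 1 of 15 was higher and 4 lower, where 11.1% and 8.23% of all genes were. Batf was at least 3.86-fold higher, Jdp2, a repressor of AP-1, 3.23-fold lower, Atf3 3.1-fold and Atf4 2.53-fold. Of the 20 kinases and SRF cofactors that act upstream, all of them measured, 0 were 2-fold higher and 1 lower in the Pik3ca/Trp53 pair, with a median of 0.06. In the Apc/Trp53 pair 1 was higher and 0 lower, with a median of 0.01. That 1 was Mrtfb, whose bound was 1.31-fold. Activity of these kinases was not measured. Nab2, the EGR corepressor, had 4895 in tumour-derived Pik3ca/Trp53 and 1583 in its source on its brighter probe, 2.74-fold higher. In the Apc/Trp53 pair it was 2.77-fold lower over 2 probes, or 1.33-fold with the dim probe at its bound.

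**Figure D4:**
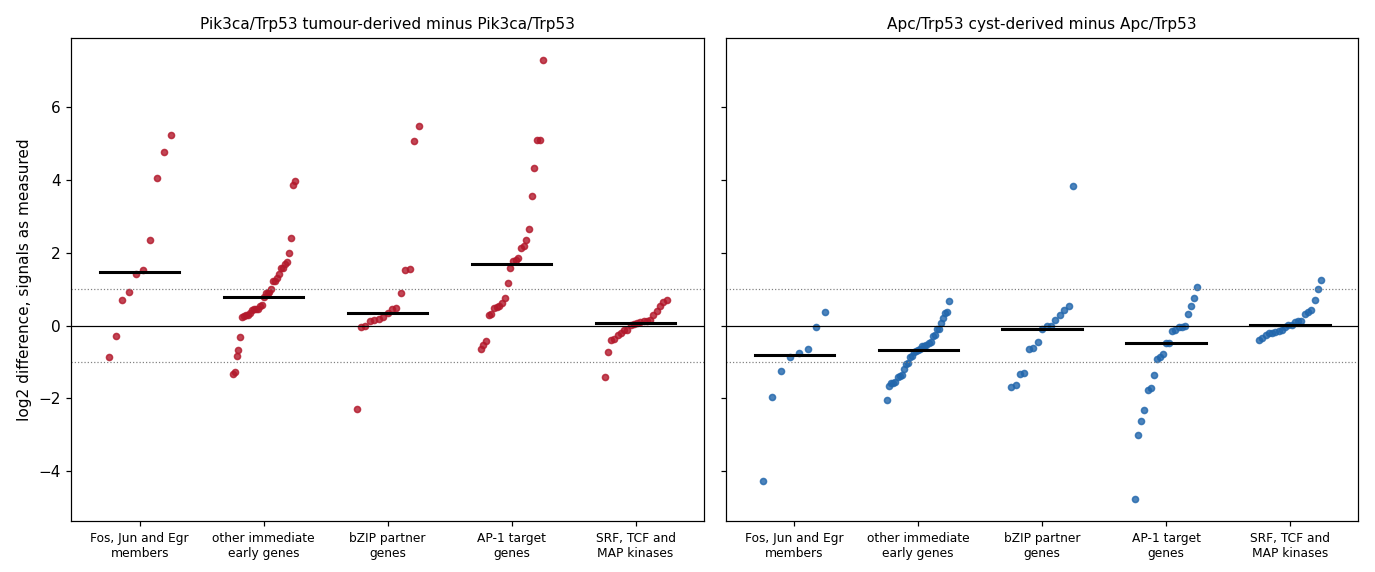
Log2 differences, as measured and without bounds, of the members and of 4 lists of related genes, in tumour-derived Pik3ca/Trp53 minus its source (left, red) and cyst-derived Apc/Trp53 minus its source (right, blue), 1 array each. Each point is a gene, ordered by value within its list, black bars are medians and dotted lines mark 2-fold. Among the members, 6 of 10 points lie past 2-fold upward on the left, 4 of them with source signals not well above background, and 3 of 8 lie past it downward on the right.

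Markers of other cell types differed between both lesion-derived cultures and their sources. Of 9 fibroblast markers, 4 were well above background in tumour-derived Pik3ca/Trp53 (Postn, Pdgfra, Col1a1 and Col1a2), 1 in Pik3ca/Trp53, 2 in cyst-derived Apc/Trp53 and 0 in Apc/Trp53, Trp53 loss and control. Their summed signal over the array's 75th percentile was 13.0 in tumour-derived Pik3ca/Trp53 and 0.178 to 0.641 in the other 5 cultures. Postn had a signal of 3978 there, in a sum of 4350 over the 9 genes, and was at least 89.0-fold above its source. For Col1a1 and Col1a2, with dim signals of 34.7 and 53.54 there, the bounds were 1.2-fold and 1.99-fold. For Pdgfra the bound was 2.23-fold, with an SD of 3.97 log2 units between its 2 probes. In cyst-derived Apc/Trp53 Pdgfra was at least 7.69-fold above its source, and Pdgfrb at least 1.71-fold. Dcn, Lum, Col3a1 and Thy1 were above background in no culture. Of 9 leukocyte markers, 4 were above background in tumour-derived Pik3ca/Trp53 and 5 in each of the other 5 cultures, with a summed level of 23.7 there and 9.13 to 43.8 in the others. Ptprc, which marks all leukocytes, was above background in cyst-derived Apc/Trp53 alone, at least 3.4-fold above its source, and Adgre1, Cd79a and Tyrobp in no culture. Other leukocyte markers went the other way in the Apc/Trp53 pair, Cd68 by 4.6-fold and Laptm5 by at least 3.35-fold. Itgam, Cd3e and Fcer1g did not reach 2-fold there. The summed level was 9.13 in cyst-derived Apc/Trp53 and 14.9 in its source. In the Pik3ca/Trp53 pair Itgam was 2.01-fold higher and Laptm5 at least 4.12-fold lower. Of 7 endothelial markers, 3 were above background in tumour-derived Pik3ca/Trp53, 2 in Pik3ca/Trp53 and 4 in each Apc/Trp53 culture, and Emcn, Tek and Tie1 in no culture. Their summed level was 0.575 in tumour-derived Pik3ca/Trp53, 1.35 in its source, 4.61 in cyst-derived Apc/Trp53, 3.65 in its source, 0.852 in Trp53 loss and 1.22 in control. Kdr had a signal of 905.8 in cyst-derived Apc/Trp53 and 581.6 in its source, and was not well above background in either Pik3ca/Trp53 culture. Vwf was 2.77-fold higher and Cdh5 5.42-fold lower in cyst-derived Apc/Trp53 than in its source, and Vwf 5.29-fold lower in tumour-derived Pik3ca/Trp53 than in its source. Multiciliated cell markers had their highest summed level, 15.6, in control and 3.27 to 6.85 in the other cultures. Ccno, a regulator of multiciliated cell formation, was at least 6.28-fold higher in tumour-derived Pik3ca/Trp53 and at least 8.6-fold lower in cyst-derived Apc/Trp53 than in their sources. For Cfap43, a cilium gene, the bounds were 5.03-fold upward in the Pik3ca/Trp53 pair and 1.26-fold downward in the Apc/Trp53 pair. Thus 2 of the 5 multiciliated markers measured in both pairs went the opposite ways that Fosl1 and Egr1 did. Of all genes measured in both pairs, 2.70% did so. Foxj1, of the same list, was higher in both pairs, by 2.12-fold in the Pik3ca/Trp53 pair and 2.92-fold in the other. Mcidas and Rsph1 reached 2-fold in neither pair. The summed level of the list was 6.85 in cyst-derived Apc/Trp53 and 5.46 in its source. Of the 10 epithelial markers, Krt7 was 3.1-fold higher in the Pik3ca/Trp53 pair and 2.66-fold lower in the Apc/Trp53 pair, and no other reached 2-fold in either. Between the lesion-derived cultures 3 of the 10 were 2-fold higher in tumour-derived Pik3ca/Trp53 and 0 lower. These were Krt7 (4.89-fold), Krt19 (2.89-fold) and Cldn3 (2.48-fold), where 16.9% and 15.7% of all genes were. The part of these cell types in the values of the members and of the other lists was not tested.

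The genes whose levels over the 6 cultures most resembled those of a member were looked up for the 5 members that were above background on every array and ranged over at least 1 log2 unit. These are descriptions over 6 arrays, among 4508 genes with such a range, and carry no p-value. Fos was most like Sik1, a kinase that is itself an immediate early gene (Pearson r of 0.995), Lgals3 and Fam124a. Junb was most like Mgat5b (r of 0.994), F3, the gene of tissue factor, which also stood in the list of AP-1 targets, and Sdc4. F3 had signals of 33080 in tumour-derived Pik3ca/Trp53, 8202 in Pik3ca/Trp53, 2937 in cyst-derived Apc/Trp53, 4952 in Apc/Trp53, 12020 in Trp53 loss and 13450 in control. Egr1 was most like Tuba8 (r of 0.990), Tnfrsf21 and Upp1, Jund most like Cpe (r of 0.997), Smim14 and Ddit3, and Fosl2 most like Arl15 (r of 0.992), Armcx3 and Mrpl36.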

How the data were processed

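Total RNA of 6 organoid cultures was hybridised to 6 one-colour Agilent arrays, from 0.2 μg RNA each, per the labels' protocols. Spot intensity in the deposited scanner files is background-subtracted and unscaled between arrays, and came from Feature Extraction (version 11.0.1.1), per the file headers. The deposited table of log2 values of 2047 probes lists 1 member probe, of Egr3. Its differences between columns match those of the scanner values (r of 1), while its centring is not stated. Its column medians were −0.05, 0.15, −0.20, −0.32, −0.02 and 0.03, from tumour-derived Pik3ca/Trp53 through its source, cyst-derived Apc/Trp53, its source and Trp53 loss to control.

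Control and outlier-flagged spots were left out, spots of a probe were averaged, and each array's 75th percentile over gene probes was subtracted from log2 intensity. RefSeq named 34566 probes. Of a gene's named probes, those well above background on either array of a comparison were averaged. The 9 comparisons have no test. Related-gene lists were described by counts and medians, naming at most the 4 largest differences past 2-fold in a list and comparison, and, for likeness, the 3 genes with the highest correlation. The members, lists and rules were chosen with earlier results of these data known. A simulated array was made from the control array, with shifts past 2-fold and noise under the technical error of bright spots. In it 200 of 200 changed genes and 0 of 13624 unchanged ones were called. It checks the computation and gives no error rate for the differences described here. Software was Python 3.11.15 (pandas 2.3.3, numpy 2.4.6, matplotlib 3.10.9) and R 4.3.3 (limma 3.58.1, data.table version 1.17.8). Alternatives were median scaling, quantile normalization, normexp (offset 50, on spot medians), no filter, probes above background on all 6 arrays, the brightest probe and, added later, a percentile over those probes.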

Additional observations from a re-analysis of the deposited data

Results flagged for a closer look

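Fosl1 and Egr1 differed from the source culture in opposite directions in the 2 pairs. The Fosl1 log2 difference was 4.03 in tumour-derived Pik3ca/Trp53 minus Pik3ca/Trp53 and −4.27 in cyst-derived Apc/Trp53 minus Apc/Trp53, both computed against a signal that was not well above background. The Egr1 log2 difference was 2.33 in the Pik3ca/Trp53 pair and −1.96 in the Apc/Trp53 pair, with both signals well above background. Each culture had 1 array, so the difference between the pairs was not tested.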

How the results depend on the processing

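Of 536 member differences recomputed under 8 settings, 516 kept their side of 2-fold, 15 fell under it and 5 passed it. Of those at least 2-fold apart, 0 reversed. Direction was not compared for differences under 2-fold. The counts of members 2-fold apart moved by over 1.5 times as follows. With normexp correction the count was 0 in place of 1 in Trp53 loss minus control, 1 in place of 2 in Pik3ca/Trp53 minus Trp53 loss, 1 in place of 2 in Pik3ca/Trp53 minus control and 1 in place of 3 in Apc/Trp53 minus control. Without a filter it was 0 in Trp53 loss minus control. With probes above background on all 6 arrays, which leaves 6 of the 10 members, it was 0 in Trp53 loss minus control, 0 in Pik3ca/Trp53 minus each of Trp53 loss, control and Apc/Trp53, 2 in place of 6 in the Pik3ca/Trp53 pair and 5 in place of 9 between the lesion-derived cultures. With median scaling it was 5 in place of 3 in the Apc/Trp53 pair. That scaling moved the median of all genes to 0.23 in Trp53 loss minus control, 0.28 and 0.32 in Pik3ca/Trp53 and Apc/Trp53 minus control, −0.18 and −0.37 in the Pik3ca/Trp53 and Apc/Trp53 pairs and 0.19 between the lesion-derived cultures. The share of 2-fold calls over all genes that were higher became 56.9%, 63.9%, 61.8% and 37.5%, against 46.3%, 49.9%, 46.5% and 57.3% with the 75th percentile, in Trp53 loss, Pik3ca/Trp53 and Apc/Trp53 minus control and in the Apc/Trp53 pair. The causes were not tested. Counts could not be recomputed from the authors' value table, which lists only Egr3 among the members. No paired analysis was possible because each culture had 1 array and no comparison had a test. Signal over background limits Fosb, Fosl1, Egr2 and Egr3, whose differences often rest on 1 dim array.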
